A study of Rattus norvegicus with 32 samples.

Results

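The Egr, Nr4a and Ier immediate-early genes, with Zfp36, were followed in liver sinusoidal endothelial cells (LSECs) of rats. The 10 genes, Egr1, Egr2, Egr3, Nr4a1, Nr4a2, Nr4a3, Ier2, Ier3, Ier5 and Zfp36, were chosen by their symbols among the 32623 gene rows of the files, each symbol matched 1 row, and all 10 passed the low-count filter in every comparison. Poly(A) RNA was sequenced in 32 libraries. The CCl4 model holds libraries from untreated male Wistar Han rats (healthy, n = 6) and from rats that inhaled carbon tetrachloride, a hepatotoxin, for 2 weeks (acute, n = 5), for 6 weeks (fibrosis, n = 5) or for 12 to 14 weeks (cirrhosis, n = 6). The CCl4 rats also drank phenobarbital, an inducer of the enzymes that activate CCl4, and whether the healthy rats did is not given in the sources used here. Another experiment used thioacetamide (TAA), also a hepatotoxin, and holds 5 libraries labelled control and 5 labelled TAA control. The labels name Wistar Han rats for that experiment too, whereas the design text names Sprague-Dawley rats, and neither the labels nor the methods settle which of the 5 and 5 received TAA, so these groups are called here by their labels only. In every group LSECs were obtained by perfusion and digestion of the liver and a density gradient of iodixanol, without a sort by surface marker. Per the study's methods, cells of the CCl4 and TAA models were taken some days after the last toxicant dose, to lessen acute inflammatory responses. The time from digestion to lysis is not given per group in the sources used here. No source names a batch for any library, so that batch and stage cannot be told apart.

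Immediate-early genes are switched on within minutes of a stimulus such as a growth factor, shear stress, a cytokine or the mechanical and enzymatic dissociation of a tissue, without new protein being made first. Kinases of the MAPK cascades act on factors already sitting at the promoters, SRF with its ELK partners at CArG boxes and CREB at cyclic AMP response elements (CREs), and most of the mRNAs made are short-lived. In LSECs, the fenestrated and scavenging endothelium of the liver, they are known as part of the response to flow and to injury.

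CArG boxes and CREs are among the elements through which such stimuli are known to act, so the promoters of those of the 10 genes that held either are shown first. RefSeq promoter sequences (build GRCr8, another build than the Rnor_6.0 used for the counts) were matched for 7 of the 10 genes, and Egr3, Nr4a3 and Ier3 had no entry. In the 250 bases before each start site, both strands were searched for the CArG box (CC, 6 bases that are each A or T, then GG) and for the core of the CRE, TGACG. A CArG box was found in 3 of the 7 promoters, those of Egr1, Egr2 and Zfp36, and in 1.5% of all 33469 promoters of the table. TGACG was found in 5 of the 7, those of Egr1, Egr2, Nr4a1, Nr4a2 and Ier2, and in 18.2% of all promoters. The full palindrome TGACGTCA, which contains the core on both strands, was found in Ier2 only among the 7, and in 1.59% of all promoters. The sequences are given 5′ to 3′ towards the start site, with CArG boxes and TGACG (read as CGTCA where it lies on the other strand) in capitals.
Egr1 (chr18:26736828-26737077, plus strand): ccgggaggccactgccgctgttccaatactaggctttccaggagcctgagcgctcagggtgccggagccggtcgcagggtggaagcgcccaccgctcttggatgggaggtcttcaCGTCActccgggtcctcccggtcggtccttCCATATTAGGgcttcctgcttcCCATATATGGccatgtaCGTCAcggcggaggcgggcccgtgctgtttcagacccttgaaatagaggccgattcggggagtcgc
Egr2 (chr20:21054442-21054691, minus strand): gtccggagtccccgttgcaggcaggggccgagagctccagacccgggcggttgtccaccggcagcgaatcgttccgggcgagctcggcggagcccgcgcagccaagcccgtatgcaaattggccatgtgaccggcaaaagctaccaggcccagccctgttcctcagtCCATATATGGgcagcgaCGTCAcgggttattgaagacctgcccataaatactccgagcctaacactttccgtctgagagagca
Zfp36 (chr1:92799109-92799358, minus strand): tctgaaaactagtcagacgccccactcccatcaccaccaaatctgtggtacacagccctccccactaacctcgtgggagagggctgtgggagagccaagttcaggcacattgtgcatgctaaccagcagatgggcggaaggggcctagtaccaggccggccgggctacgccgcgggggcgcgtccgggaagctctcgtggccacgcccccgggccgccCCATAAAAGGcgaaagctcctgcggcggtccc
Ier2 (chr19:40399123-40399372, plus strand): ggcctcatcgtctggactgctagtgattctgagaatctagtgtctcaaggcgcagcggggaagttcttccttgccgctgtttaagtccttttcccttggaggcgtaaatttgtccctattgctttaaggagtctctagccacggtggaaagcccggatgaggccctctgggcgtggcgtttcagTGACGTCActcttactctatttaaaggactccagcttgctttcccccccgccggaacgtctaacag
Nr4a1 (chr7:134259888-134260137, plus strand): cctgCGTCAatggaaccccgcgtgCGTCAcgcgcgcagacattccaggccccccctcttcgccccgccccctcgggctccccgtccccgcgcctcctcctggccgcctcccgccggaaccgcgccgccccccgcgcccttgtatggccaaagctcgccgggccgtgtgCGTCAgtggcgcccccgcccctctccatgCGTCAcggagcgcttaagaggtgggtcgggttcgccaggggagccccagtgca
Nr4a2 (chr3:62104888-62105137, minus strand): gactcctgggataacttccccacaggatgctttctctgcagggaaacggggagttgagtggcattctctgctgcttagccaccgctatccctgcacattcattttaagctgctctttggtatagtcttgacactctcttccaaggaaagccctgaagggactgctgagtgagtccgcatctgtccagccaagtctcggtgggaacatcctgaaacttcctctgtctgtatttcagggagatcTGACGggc
Egr1 had 2 CArG boxes, beginning 105 and 83 bases before the start, and 2 CRE cores, at 135 and 66 bases. Egr2 had 1 CArG box at 83 and 1 CRE core at 66 bases before the start, the same distances as in Egr1. Zfp36 had its CArG box at 32 bases. Nr4a1 had no CArG box and 4 CRE cores, at 246, 226, 82 and 53 bases before the start, whereas Nr4a2 had 1 CRE core, at 8 bases. Ier5, which is not shown, had neither element in this window. The binding motifs of EGR proteins were searched too, and GCGGGGGCG was found in Nr4a1 and Zfp36 (2.45% of all promoters) and GCGTGGGCG in 0 of the 7 (0.478%). The AP-1 motif TGANTCA (6.34% of all promoters) and the NR4A motif AAAGGTCA (1.24%) were found in 0 of the 7. A match describes letters and not binding, and only the window shown was searched.

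Total expected counts, the depth of a library, ranged from 33742382 to 41228835 in healthy, from 32037715 to 36916992 in acute, from 28205908 to 30679815 in fibrosis and from 38812871 to 46464289 in cirrhosis. For the TAA experiment they were 27589168 to 32631606 in the libraries labelled control and 25646531 to 30470027 in those labelled TAA control. Levels are CPM, that is counts per 1000000 counts of the library, after scaling with TMM factors, set over the 22 CCl4 libraries and separately over the 10 of the TAA experiment. Genes were called where limma-voom gave a Benjamini-Hochberg adjusted p-value under 0.05 over all genes tested and a fold change above 1.5. Of the 17 LSEC markers measured, none was at 0 in all libraries of a group. Their summed level ranged from 26342 to 47741 CPM in healthy and from 5408 to 6181 in acute. It ranged from 4131 to 5381 in fibrosis and from 21963 to 27955 in cirrhosis. Macrophage markers summed to 410 to 4453 CPM in healthy and 88.6 to 257 in acute. They summed to 40.02 to 252 in fibrosis and 1016 to 3645 in cirrhosis. The Kupffer cell marker Timd4 was at 0 in all acute and fibrosis libraries, but its mean was only 0.336 CPM in healthy. At such a level 0 counts do not show that these cells were absent. Another macrophage marker, C1qb, was still detected, with means of 292 CPM in healthy, 14.6 in acute and 9.296 in fibrosis. Hepatocyte markers summed to 803 to 19940 CPM in healthy, 98.0 to 854 in acute, 1160 to 4814 in fibrosis and 1857 to 11807 in cirrhosis. In bulk samples of this kind, fewer cells of a type and less RNA per cell cannot be told apart.

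Acute and fibrosis LSECs carried little RNA of the Egr, Nr4a1, Nr4a3, Ier2 and Zfp36 genes, and cirrhotic LSECs carried much of it. The 10 genes together took 1.78% ± 0.261 of a library's counts in healthy (SD, n = 6), 0.0867% ± 0.0108 in acute (SD, n = 5), 0.108% ± 0.0190 in fibrosis (SD, n = 5) and 1.06% ± 0.378 in cirrhosis (SD, n = 6). No acute or fibrosis library exceeded 0.136%, and no healthy library fell below 1.49%. Such a sum rests mostly on the most abundant of the 10 genes. In healthy these were Zfp36 and Egr1 (means of 12795 and 5237 CPM), and in acute Ier3 and Ier5 (312 and 219 CPM).

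**Figure D1:**
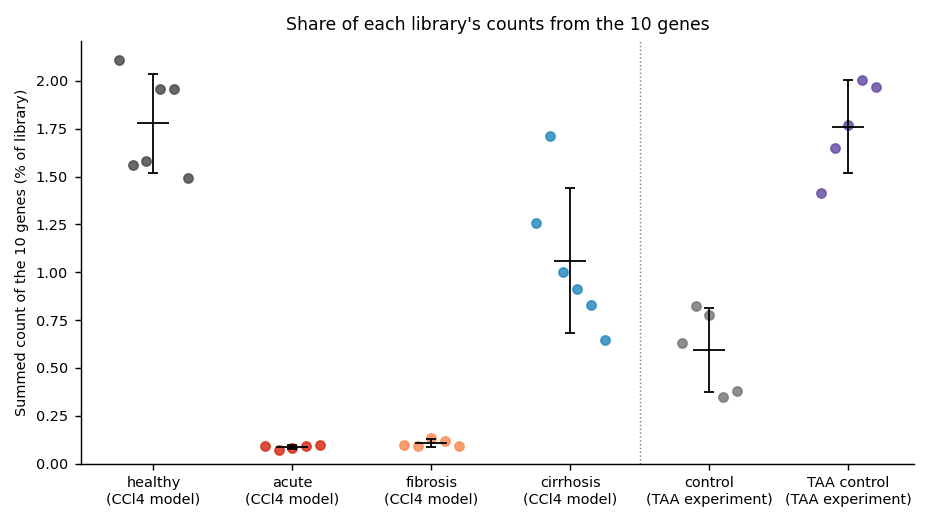
Summed count of the 10 genes as a percentage of each library's total (y axis, from 0) for the 6 groups (x axis), with 1 point per library and black bars for the mean ± SD. Acute and fibrosis libraries lay between 0.0716% and 0.136%, and the libraries labelled TAA control (1.42% to 2.00%) lay above all those labelled control (0.348% to 0.823%).

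Against healthy LSECs, 9 of the 10 genes were called lower in acute LSECs and 0 higher, where 37.9% of all 14317 genes tested were called lower and 35.5% higher. Their median log2 fold change was -4.97, beside -0.09 over all genes tested. In 9 of the 10 the acute and healthy libraries did not overlap, which was so for 60.0% of all genes. In fibrosis the same count of 9 was called lower and 0 higher (34.9% and 35.3% of 14538 genes), with a median of -4.55 beside -0.03, and 9 did not overlap (58.7% of all genes). In cirrhosis 4 of the 10 were called lower and 1 higher (24.7% and 27.1% of 14789 genes), with a median of -0.63 beside 0.07, and 3 did not overlap (27.2% of all genes). The 3 comparisons share the same 6 healthy libraries. Of the 17 LSEC markers, 15 were called lower in acute, 16 in fibrosis and 6 in cirrhosis, and of the macrophage markers tested 10 of 11, 11 of 11 and 0 of 12. Hepatocyte markers were called lower in 10 of 10, 6 of 10 and 2 of 10 cases (medians -5.99, -2.42 and -0.72), and lymphocyte markers in 6 of 7, 5 of 7 and 2 of 9. Of the neutrophil markers 2 of 2, 2 of 2 and 0 of 4 were called lower, and of the cholangiocyte markers 3 of 4, 3 of 4 and 0 of 5. From these lists, 1 cholangiocyte marker was called higher in fibrosis. In cirrhosis 2 neutrophil, 2 cholangiocyte, 1 macrophage and 1 LSEC marker were called higher. Stellate cell markers gave 6 lower and 1 higher of 9 in acute, 3 and 3 of 9 in fibrosis, and 0 and 8 of 10 in cirrhosis (medians -2.65, 0.13 and 2.28). The part of these markers in the result was not tested.

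**Figure D2:**
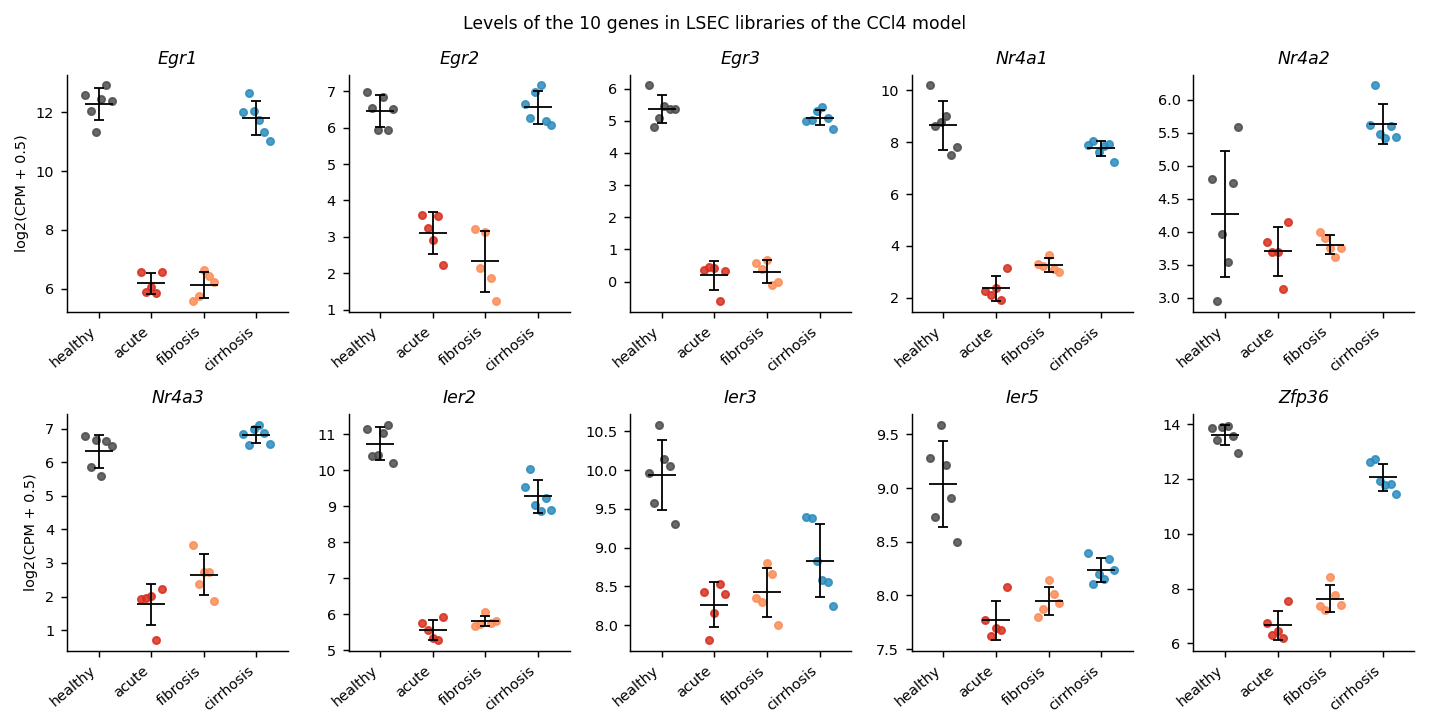
Levels of the 10 genes as log2(CPM + 0.5) (y axis, a scale of its own in each panel) in the healthy, acute, fibrosis and cirrhosis libraries of the CCl4 model (x axis). Points are libraries and black bars the mean ± SD, and in every panel but that of Nr4a2 all acute and fibrosis points lie below all healthy points.

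**Figure D3:**
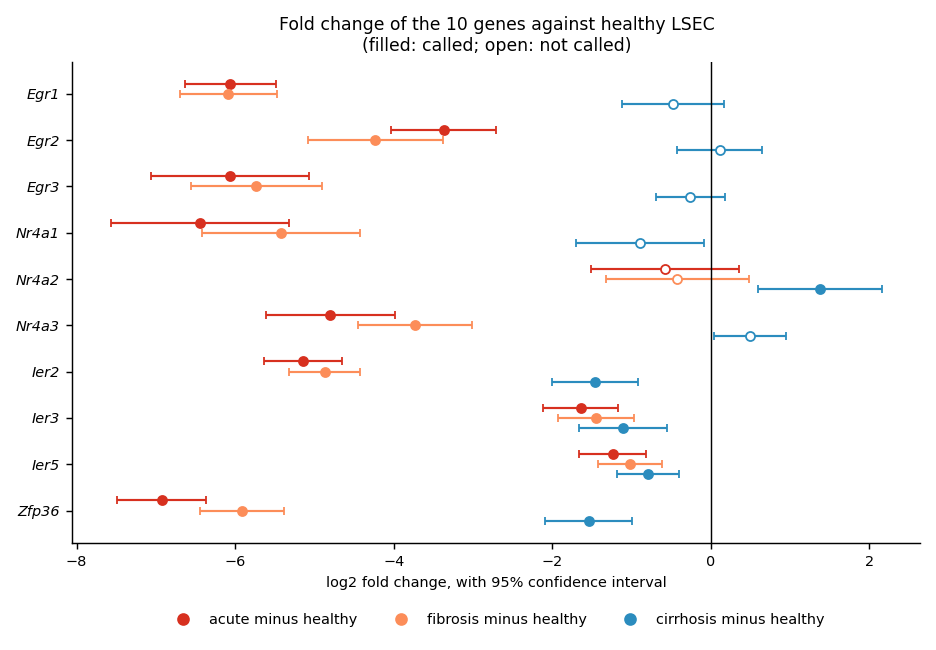
Log2 fold change against healthy LSECs (x axis) of the 10 genes (y axis) in acute, fibrosis and cirrhosis, with 95% confidence intervals from limma-voom. Filled points were called and open points were not, and only Nr4a2 in cirrhosis was called higher.

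The EGR proteins are zinc finger transcription factors that bind GC-rich sites, and Egr1 is the member best known in injured vessels and liver. Egr1 (ENSRNOG00000019422) had a lowest, median and highest level of 2576, 5439 and 7684 CPM in healthy libraries. Given in the order of their replicate numbers here and below, the acute libraries were at 94.9, 58.6, 66.8, 57.3 and 95.4 CPM and the fibrosis libraries at 47.9, 54.2, 98.7, 85.7 and 74.7 CPM. Cirrhotic libraries were at 2070, 3754 and 6443 CPM (lowest, median and highest). Every acute and fibrosis library was thus far below every healthy and every cirrhotic one, the acute and fibrosis libraries were intermingled, and cirrhosis overlapped healthy. Egr1 was 66.7-fold lower in acute than in healthy LSECs (log2 fold change -6.06, SE 0.27, limma-voom adjusted p = 3.59e-09) and 68.0-fold lower in fibrosis (-6.09, SE 0.28). In cirrhosis the difference was -0.48 (SE 0.30, 95% confidence interval -1.12 to 0.17) and was not called. Fibrosis differed from acute by 0.02 (interval -0.47 to 0.51), so that the order of the levels was acute and fibrosis, not separated, then cirrhosis and healthy, not separated.

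Egr2 (ENSRNOG00000000640), a regulator of myelination and of lymphocyte and macrophage responses, ranged from 60.3 to 126 CPM in healthy, from 4.17 to 11.7 in acute, from 1.87 to 8.87 in fibrosis and from 67.3 to 143 in cirrhosis. It was 10.4-fold lower in acute and 18.8-fold lower in fibrosis than in healthy LSECs, the smallest falls of the 3 Egr genes. In cirrhosis it differed from healthy by 0.11 (SE 0.25, interval -0.43 to 0.65), and the sign turned under some settings. Egr3 (ENSRNOG00000017828), which shares targets with Egr1, ranged from 27.7 to 68.1 CPM in healthy and from 26.2 to 42.1 CPM in cirrhosis. In acute and fibrosis it was near the limit of the sequencing, at 0.161 to 0.872 CPM (7 to 32 counts per library) and 0.430 to 1.10 CPM (15 to 35 counts). Egr3 was 67.1-fold lower in acute (-6.07, SE 0.46) and 53.1-fold lower in fibrosis (-5.73, SE 0.38), with wider errors than Egr1 at these counts. In cirrhosis the difference was -0.26 (interval -0.70 to 0.18), not called, and it turned to 0.08 when libraries were scaled by their totals without TMM factors. None of the 3 Egr genes was called between fibrosis and acute.

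The NR4A proteins are orphan nuclear receptors whose activity follows their amount rather than a ligand. Nr4a1 (ENSRNOG00000007607) had a lowest, median and highest level of 183, 415 and 1174 CPM in healthy libraries, a 6.41-fold range. The acute libraries were at 4.22, 3.81, 4.61, 3.25 and 8.43 CPM and the fibrosis libraries at 9.38, 8.74, 12.2, 8.06 and 7.50 CPM. Cirrhotic libraries were at 150, 232 and 262 CPM, a 1.75-fold range. Acute replicate 8 reached into the range of fibrosis, and the other 4 acute libraries were below all fibrosis libraries. Nr4a1 was 87.1-fold lower in acute (-6.44, SE 0.52) and 42.7-fold lower in fibrosis (-5.42, SE 0.46) than in healthy LSECs. In cirrhosis it was lower by a log2 difference that narrowly missed the call (-0.89, SE 0.38, interval -1.70 to -0.09, limma-voom adjusted p = 0.0555). It was called lower there by edgeR's quasi-likelihood test (-1.16, adjusted p = 0.0216) and by DESeq2 (-1.15, adjusted p = 0.0072), and with healthy replicate 5 (183 CPM) or 6 (226 CPM), the lowest of their group, left out. Nr4a1 was 2.11-fold higher in fibrosis than in acute (1.08, SE 0.23, adjusted p = 0.0115), a call that was lost with 1 limma-voom fit over the 4 groups (0.99, adjusted p = 0.205).

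Nr4a2 (ENSRNOG00000005600), known for its role in dopaminergic neurons, was the only one of the 10 genes not called lower in acute or fibrosis. Healthy libraries were at 7.25, 20.6 and 47.2 CPM (lowest, median and highest), a 6.51-fold range. The acute libraries were at 13.9, 12.4, 12.4, 8.29 and 17.2 CPM, and the fibrosis libraries at 15.4, 14.4, 13, 11.8 and 13 CPM. Cirrhotic libraries were at 42.1, 46.02 and 73.8 CPM. The healthy libraries spanned the whole range of the acute and fibrosis ones, and 1 of them, replicate 6, reached into the cirrhotic range. Nr4a2 was not called in acute (-0.58, interval -1.52 to 0.36) or fibrosis (-0.42, interval -1.32 to 0.48), intervals that leave room for a fall of more than 2-fold. In cirrhosis it was 2.60-fold higher than in healthy LSECs (1.38, SE 0.36, limma-voom adjusted p = 0.00618), the only one of the 10 called higher against healthy. It was 3.97-fold higher in cirrhosis than in acute (1.99, SE 0.21) and 3.62-fold higher than in fibrosis (1.85, SE 0.16), without overlap of the libraries in either case.

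Nr4a3 (ENSRNOG00000005964), the third receptor of the family, ranged from 47.7 to 110 CPM in healthy, from 1.13 to 4.20 in acute, from 3.18 to 11.05 in fibrosis and from 91.0 to 138 in cirrhosis. It was 27.8-fold lower in acute (-4.80, SE 0.37) and 13.2-fold lower in fibrosis (-3.73, SE 0.33). Its level in cirrhosis was 1.41 times that in healthy LSECs (0.49, SE 0.21, limma-voom adjusted p = 0.0612), not called. That difference was called when library totals were used without TMM factors (0.84), with a filter at 1 CPM (0.59), with library quality weights (0.76) and without healthy replicate 1 (0.59). Of the 3 receptors only Nr4a2 was called in cirrhosis against healthy, and differences between the receptors were not tested. Fibrosis minus acute was 1.13 for Nr4a3 (SE 0.41, adjusted p = 0.0758), close to the 1.08 of Nr4a1 and not called.

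Of the Ier genes, Ier2 and Ier5 encode related proteins, and Ier3 shares the name only. Ier2 is a nuclear protein tied to cell motility, Ier3 (also known as IEX-1) modulates apoptosis and NF-kB and MAPK signalling, and Ier5 binds the phosphatase PP2A and heat shock factor 1. Ier2 (ENSRNOG00000054344) was at 1171, 1728 and 2461 CPM in healthy libraries (lowest, median and highest). The acute libraries were at 53.7, 46.5, 40.1, 38.5 and 60.9 CPM, and the fibrosis libraries at 50.96, 53.1, 66.5, 53.9 and 55.6 CPM. Cirrhotic libraries were at 471, 566 and 1050 CPM. The levels fell into 3 ranges without overlap, acute with fibrosis at the bottom, cirrhosis in between and healthy at the top. Ier2 was 35.4-fold lower in acute (-5.15, SE 0.22) and 29.3-fold lower in fibrosis (-4.87, SE 0.21) than in healthy LSECs, and in cirrhosis it was still 2.75-fold lower (-1.46, SE 0.25, limma-voom adjusted p = 0.000502).

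Ier3 (ENSRNOG00000000827) and Ier5 (ENSRNOG00000059406) moved less. Ier3 ranged from 632 to 1538 CPM in healthy, from 223 to 371 in acute, from 257 to 445 in fibrosis and from 303 to 671 in cirrhosis. It was called lower at all 3 stages, 3.12-fold in acute (-1.64, SE 0.22), 2.73-fold in fibrosis (-1.45, SE 0.22) and 2.15-fold in cirrhosis (-1.10, SE 0.26). Ier5 ranged from 361 to 770 CPM in healthy, from 196 to 270 in acute, from 222 to 282 in fibrosis and from 276 to 337 in cirrhosis. It was 2.36-fold lower in acute (-1.24, SE 0.19), 2.03-fold lower in fibrosis (-1.02, SE 0.18) and 1.73-fold lower in cirrhosis (-0.79, SE 0.18), the last of which was no longer called without TMM factors (-0.44). All treated libraries were below all healthy ones for Ier5 at each stage. Neither gene passed the fold threshold between cirrhosis and acute, where Ier3 differed by 0.57 (SE 0.22, limma-voom adjusted p = 0.0301) and Ier5 by 0.48 (SE 0.10, adjusted p = 0.000558), or between cirrhosis and fibrosis, where they differed by 0.40 and 0.29. For Ier3 the cirrhosis minus acute difference lay close to the threshold, and it was called in 7 of 11 fits with a library left out and in 7 of 11 other alternatives, among them edgeR's quasi-likelihood test (0.62) and DESeq2 (0.67).

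Zfp36 (ENSRNOG00000058388) encodes tristetraprolin, which binds AU-rich elements in cytokine mRNAs and hastens their decay. It was at 7952, 13445 and 15597 CPM in healthy libraries (lowest, median and highest). The acute libraries were at 106, 78.6, 87.7, 73.6 and 186 CPM, and the fibrosis libraries at 163, 148, 340, 217 and 166 CPM. Cirrhotic libraries were at 2802, 3751 and 6835 CPM. Its levels formed 3 ranges without overlap, as those of Ier2 did, with acute replicate 8 as the only acute library inside the fibrosis range. Zfp36 was 122-fold lower in acute than in healthy LSECs (-6.93, SE 0.26, limma-voom adjusted p = 1.77e-09) and 60.4-fold lower in fibrosis (-5.92, SE 0.24), the largest fold of the 10 in acute. In cirrhosis it was 2.91-fold lower (-1.54, SE 0.26, adjusted p = 0.000406). From acute to fibrosis it was 2.08-fold higher (1.06, SE 0.28, adjusted p = 0.0259), a call that was lost without acute replicate 1, 2, 3 or 4 or fibrosis replicate 16.

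Between the stages of treated rats, the sequence of the model places fibrosis between acute injury and cirrhosis. Fibrosis against acute gave 2 of the 10 genes called higher, Nr4a1 and Zfp36, and 0 lower, where 10.2% of 13931 genes tested were called higher and 0.732% lower. The median difference of the 10 was 0.29, beside 0.00 over all genes. All 10 hepatocyte markers and 6 of 9 stellate cell markers tested were called higher in the same comparison, and their part in the result was not tested. Cirrhosis against fibrosis gave 8 of the 10 called higher and 0 lower (34.3% and 29.5% of 15186 genes), with a median of 4.34 beside 0.04. Cirrhosis against acute gave 8 higher and 0 lower (37.5% and 31.8% of 15005 genes), with a median of 4.52 beside 0.04. The genes not called in either were Ier3 and Ier5. Egr1 was 50.7-fold higher in cirrhosis than in fibrosis (5.66, SE 0.27) and 48.8-fold higher than in acute (5.61, SE 0.26). Egr3 was 46.3-fold and 57.6-fold higher, Nr4a1 23.9-fold and 48.0-fold, and Zfp36 21.5-fold and 42.5-fold. LSEC markers were called higher in 15 of 17 and 16 of 17 cases in these 2 comparisons, and macrophage markers in 12 of 12 in both. Hepatocyte markers were called higher in 8 of 10 against fibrosis and 10 of 10 against acute, stellate cell markers in 7 and 9 of 10, and cholangiocyte markers in 4 and 5 of 5. Lymphocyte markers were called higher in 7 of 8 and neutrophil markers in 4 of 4 in both. Their part in the result was not tested.

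Within groups, single libraries were often the lowest or the highest for several of the 10 genes, which is given as a description with no test. In acute, replicate 4 was the lowest for 7 genes and the highest for 1, and replicate 8 the highest for 7 and the lowest for 1. In fibrosis, replicate 15 was the highest for 7 and the lowest for 0, whereas replicate 12 was the lowest for 3 and the highest for 3. In cirrhosis, replicate 6 was the lowest for 6 and the highest for 0, and replicate 2 the highest for 5 and the lowest for 2. In healthy rats, replicate 1 was the highest for 4 genes (Egr2, Egr3, Nr4a1 and Nr4a3) and the lowest for 0, and replicate 6 the lowest for 4 and the highest for 1. Healthy Nr4a1 and Nr4a2 varied most between rats, whereas Zfp36 varied 1.96-fold from the lowest to the highest healthy rat.

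The TAA experiment showed the 10 genes in a separate set of 10 libraries. In the libraries labelled TAA control against those labelled control, 6 of the 10 were called higher and 0 lower, where 12.7% of 14376 genes tested were called higher and 14.9% lower. Their median log2 fold change was 0.90, beside 0.03 over all genes, and 6 did not overlap between the groups (35.4% of all genes). The 10 genes took 0.592% ± 0.2204 of the counts in the libraries labelled control and 1.76% ± 0.241 in those labelled TAA control (SD, n = 5 each). Egr1 was at 2150, 2806, 3241, 996 and 1140 CPM in the libraries labelled control and at 6709, 7493, 8030, 9072 and 8713 CPM in those labelled TAA control. All of the latter were above all of the former, by 4.27-fold in the fit (2.09, SE 0.32, limma-voom adjusted p = 0.000463). Ier2 was at 451, 585, 475, 213 and 222 CPM against 1186, 1353, 1712, 2178 and 2243 CPM. It did not overlap either and was 4.69-fold higher (2.23, SE 0.32), the largest difference of the 10. Zfp36 was at 2996, 3764, 3204, 1490 and 1645 CPM against 5475, 6507, 6924, 7867 and 7711 CPM. It was 2.79-fold higher (1.48, SE 0.26), again without overlap. Libraries 4 and 5 labelled control were the lowest of their group for Egr1, Egr2, Nr4a1, Nr4a2, Ier2, Ier5 and Zfp36, but not for Egr3, Nr4a3 and Ier3.

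**Figure D4:**
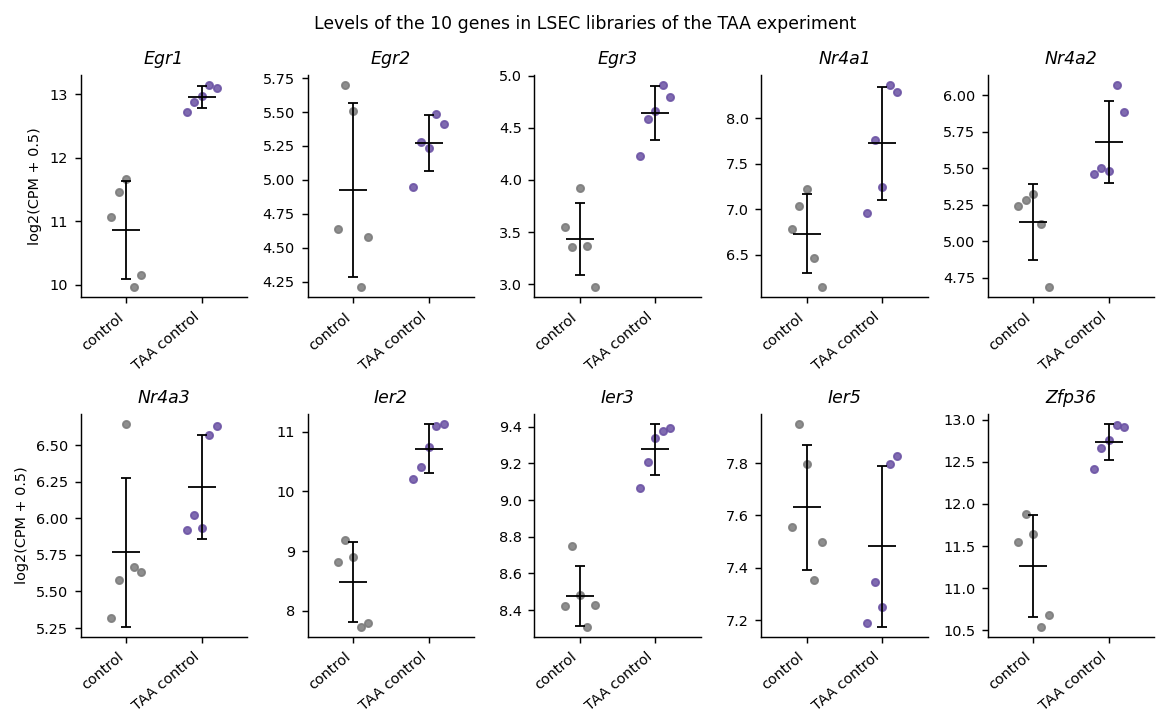
Levels of the 10 genes as log2(CPM + 0.5) (y axis, a scale of its own in each panel) in the 5 libraries labelled control and the 5 labelled TAA control (x axis). Points are libraries and black bars the mean ± SD, and the groups do not overlap for Egr1, Egr3, Nr4a2, Ier2, Ier3 and Zfp36.

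Egr3 was 2.38-fold higher (1.25, SE 0.18), Nr4a1 2.003-fold (1.002, SE 0.29) and Ier3 1.74-fold (0.80, SE 0.10) in the libraries labelled TAA control, each called. Nr4a2 ranged from 25.2 to 39.6 CPM in the libraries labelled control and from 43.6 to 66.7 CPM in those labelled TAA control. Its groups did not overlap, but the fold of 1.47 was under the threshold (0.56, SE 0.16, limma-voom adjusted p = 0.0123), and Nr4a2 was called in 6 of 10 fits with a library left out and with library quality weights (0.60). Egr2 (0.35, interval -0.23 to 0.93), Nr4a3 (0.45, interval -0.08 to 0.99) and Ier5 (-0.15, interval -0.49 to 0.20) were not called. Nr4a3 was called without control replicate 3 (0.67), which stood at 99.6 CPM where the other 4 were between 39.5 and 50.2 CPM. The library labelled TAA control replicate 10 was the lowest of its group for all 10 genes, and replicates 14 and 15 were the highest, for 6 and 4 genes. Replicates 14 and 15 were nearer to each other over all genes (chi-square per degree of freedom 3.05) than any pair of the other groups (at least 25.2), though not as near as sampling noise, and whether they come from separate rats is not settled. With their mean used as 1 library the same count of 6 genes was called. Of the marker lists, 8 of 10 stellate cell, 6 of 10 hepatocyte and 4 of 4 cholangiocyte markers were called lower in the libraries labelled TAA control. Called higher were 6 of 17 LSEC, 2 of 4 lymphocyte, 1 of 2 neutrophil and 1 of 11 macrophage markers tested. Stellate cell markers summed to 2108 to 5237 CPM in the libraries labelled control and to 344 to 538 CPM in those labelled TAA control, without overlap. Lymphocyte markers summed to 4.80 to 31.8 CPM and to 40.4 to 90.3 CPM, also without overlap. The part of all these markers in the result was not tested.

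The gene lists that follow are read beside all genes tested, of which 35.5% were called higher and 37.9% lower in acute, 35.3% and 34.9% in fibrosis, 27.1% and 24.7% in cirrhosis, and 12.7% and 14.9% in the TAA experiment. The other immediate-early genes that encode transcription factors, a list of 17, gave 12 called lower and 3 higher in acute, 12 and 3 in fibrosis, and 7 and 2 in cirrhosis, with medians of -3.56, -2.05 and -0.37. Fosb, an AP-1 subunit, fell from 10958 CPM in healthy to 14.6 in acute (-9.83, SE 0.41) and 36.8 in fibrosis (-8.16, SE 0.22). Lower in acute and fibrosis too were Fos, its better known relative (-8.38 and -7.06), Egr4 (-8.25 and -7.09) and Klf2, the flow-induced factor of endothelium (-6.95 and -6.29). In cirrhosis Egr4 (-1.77), Junb (-1.47), Klf2 (-1.44) and Csrnp1 (-1.42) were the largest changes called. The genes called higher in acute, named after their values were seen, were Klf6, Fosl1 and Myc. In the TAA experiment 8 were called higher and 4 lower in the libraries labelled TAA control (median 0.58), among them Egr4 (2.34), Fos (2.18), Jun (1.93) and, lower, Myc (-2.37).

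Immediate-early genes that encode other proteins, 23 measured of 24 listed, gave 16 called lower and 5 higher in acute, 13 and 5 in fibrosis, and 10 and 4 in cirrhosis, with medians of -2.38, -1.44 and -0.41. The 10 called lower in cirrhosis came to 6 without TMM factors. Socs3, a brake on cytokine signalling, was lower in acute and fibrosis (-5.80 and -5.53), as were Dusp1, a MAPK phosphatase (-5.67 and -5.42), and Btg2, an antiproliferative protein (-4.60 and -4.71). Ctgf (3.60), a matrix protein of YAP and TGF-beta signalling, was the largest rise in acute, and Dusp2 (3.997) in fibrosis. In cirrhosis Ptgs2 (2.36) and Gem (1.55) were called higher and Dusp1 (-1.73) and Arc (-1.56) lower. In the TAA experiment 11 were called higher and 5 lower (median 0.39), with Dusp1 (2.29) and Btg2 (1.97) higher and Dusp2 (-2.32) and Gem (-2.14) lower in the libraries labelled TAA control.

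**Figure D5:**
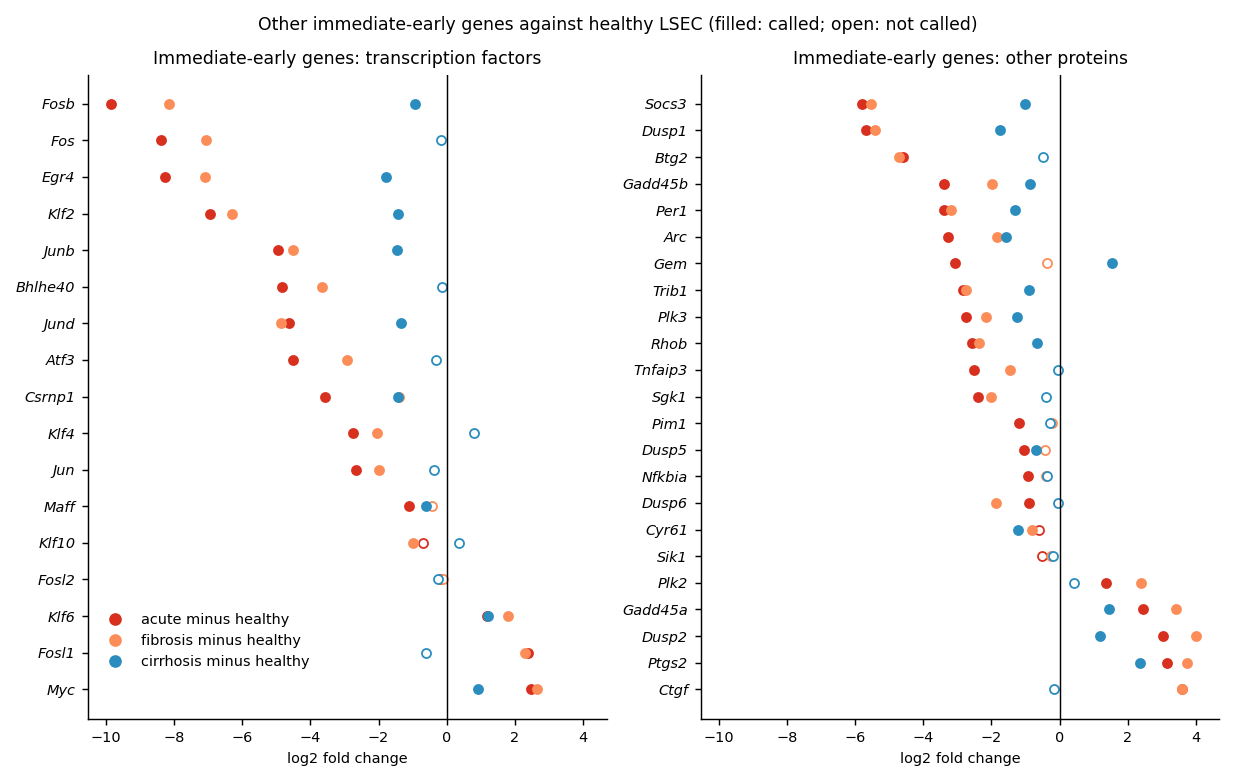
Log2 fold change against healthy LSECs (x axis) of other immediate-early genes (y axis), transcription factors on the left and other proteins on the right, in acute, fibrosis and cirrhosis. Filled points were called and open points were not, and most acute and fibrosis points lie left of 0, whereas those of Klf6, Myc, Plk2, Gadd45a, Dusp2 and Ptgs2 lie right of it at all 3 stages.

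Of 18 kinases and factors that act upstream of immediate-early promoters, 6 were called higher and 8 lower in acute (median -0.27), 6 and 8 in fibrosis (-0.19) and 5 and 9 in cirrhosis (-0.34). In acute and fibrosis these counts were near the shares of all genes. The 9 called lower in cirrhosis came to 5 without TMM factors. Elk3, an SRF partner, was lower in acute (-2.32, SE 0.18) and fibrosis (-2.15, SE 0.17). Creb1 (2.08 and 2.12), the kinase Map2k1 (1.81 and 1.94) and Rps6ka5 (1.77 and 1.85), a kinase of CREB and histone H3, were higher in the same groups. The libraries labelled TAA control had 0 called higher and 1 lower, Rps6ka3 (-1.15). Srf itself was chosen for mention after its values were seen, as the factor known to bind CArG boxes. It differed by 0.22 in acute and 0.21 in fibrosis, not called, and was called lower in cirrhosis (-0.90).

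Partners and paralogs of the 10 genes, a list of 7, gave 1 called higher and 6 lower in acute and in fibrosis, and 1 and 3 in cirrhosis. Nab1, a corepressor of EGR proteins, was the one called higher, at all 3 stages (2.34, 2.31 and 1.23). Ier5l, a relative of Ier5, was called lower at all 3 (-3.04, -3.05 and -2.36), and Rxra, a partner of NR4A receptors, likewise (-2.71, -2.87 and -1.45). Zfp36l1, a paralog of Zfp36, was called lower in acute and fibrosis (-1.63 and -1.44, against -6.93 and -5.92 for Zfp36). Ier5l (0.87) and Zfp36l1 (0.62) were called higher in the libraries labelled TAA control, with 0 called lower, and 1 of the 2 calls was left without TMM factors or with replicates 14 and 15 averaged.

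Of 9 genes known as EGR targets, 4 were called higher and 4 lower in acute and in fibrosis, and 3 and 2 in cirrhosis, with medians of -0.57, 0.47 and 0.36, counts near the shares of all genes (35.5% higher and 37.9% lower in acute). Icam1, a leukocyte adhesion receptor, was lower in acute and fibrosis (-4.83 and -4.54), as was Tnfsf10, which encodes TRAIL (-6.34 and -6.01). F3, tissue factor, was higher in both (3.29 and 4.54). In cirrhosis F3 (1.45) and Pdgfa (1.44) were called higher and Icam1 (-1.20) lower. In the TAA experiment 2 were called higher and 5 lower in the libraries labelled TAA control (median -0.81), with Tnfsf10 (1.46) among the former.

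Cytokine and related mRNAs with AU-rich elements are the kind of mRNA tristetraprolin acts on. Of 8, 6 were called higher and 1 lower in acute and in fibrosis, where 35.5% and 35.3% of all genes were called higher, with medians of 1.91 and 2.21. In cirrhosis 2 were called higher and 0 lower, near the 27.1% of all genes called higher, with a median of 0.65. Csf2 rose by 3.78 in acute and 4.27 in fibrosis on the log2 scale, Ptgs2 by 3.15 and 3.73 and Vegfa by 2.64 and 2.47. Tnf, the best known target of tristetraprolin, went the other way (-7.82, SE 1.28, in acute and -4.02, SE 0.54, in fibrosis). In cirrhosis Il6 (4.17) and Ptgs2 (2.36) were called higher. In the TAA experiment 2 were called higher and 4 lower in the libraries labelled TAA control (median -0.73), with Il6 at -4.22 and Il1b at 2.90. No decay rate was measured, and a link between Zfp36 and these mRNAs was not tested. The lists overlap, as Ptgs2 was also counted among the immediate-early genes that encode other proteins, and Vegfa among the EGR targets.

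Likeness to the 10 genes was measured as Pearson's r, over the 22 CCl4 libraries, with the mean of their standardized levels, as a description over libraries that share groups and scaling. Among the 10 themselves, r ranged from 0.991 (Zfp36) down to 0.816 (Ier5), 0.796 (Ier3) and 0.600 (Nr4a2). Each of the 10 was part of that mean, which raises its own r, so these values cannot be set beside those of other genes. The 6 genes outside the set with the highest r were Socs3 (0.992), Ccm2l (0.989), a gene of endothelial junction signalling, Lipe (0.989), the hormone-sensitive lipase, Pcdh12 (0.988), an endothelial protocadherin, Galnt18 (0.987) and Fosb (0.987). Pcdh12 was at 610 CPM in healthy, 4.66 in acute, 5.52 in fibrosis and 320 in cirrhosis. Over the 10 libraries of the TAA experiment r was 0.980 for Fosb, 0.896 for Ccm2l and 0.816 for Lipe, but 0.391 for Pcdh12, 0.0061 for Galnt18 and -0.18 for Socs3.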

How the data were processed

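RNA of LSECs from 32 libraries was analysed. For each library the authors deposited the expected counts of RSEM, fractional estimates of reads, for 32623 gene rows, made, per the labels, from poly(A) RNA with FastQC, Trim Galore, STAR and RSEM on Rnor_6.0, without normalization or pooling. RSEM divides reads shared by similar genes according to its estimates. Expected counts were rounded and genes were kept with filterByExpr. The 2 groups of each comparison were fitted with limma-voom and TMM factors, as the study's methods name, without covariates, using limma 3.58.1, edgeR 4.0.16 for factors and filter, and R 4.3.3, with DESeq2 1.42.0 among the alternatives. All adjusted p-values are Benjamini-Hochberg values over all genes tested, from limma-voom unless another tool is named, where the study's own threshold used unadjusted ones. They set a difference between groups against the spread between these libraries within the groups. Log2 CPM used a pseudocount of 0.5. Tables were joined in Python 3.11.15 and plots made by matplotlib 3.10.9. The fits were also run on simulated counts in which few genes changed, up and down alike. Changes in the real libraries were far broader, so that run does not show how well the scaling worked here.

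Groups and replicate numbers come from the sample labels, and the 12 to 14 weeks of the cirrhotic rats from the design text. Numbers in the titles and descriptions of the libraries labelled TAA control disagree, and the titles were used. Same-numbered libraries of different groups come from different rats, and their deviations from the group means correlated between -0.24 and 0.29, so the numbers were not taken to pair libraries. The 10 genes and the gene lists were chosen with earlier results of these data known. Named were the 10 genes in every comparison, up to 4 called genes with the largest change in a list, and the 6 genes, with a mean log2 CPM of at least 3, of highest correlation with the 10. One gene of the EGR target list that this rule names is not reported here. Gene positions are not given for the counts, because the reference tables are of GRCr8. Alternatives were edgeR's quasi-likelihood test, DESeq2, DESeq2's size factors, library totals without TMM, other filters, unadjusted p-values, no fold threshold, library quality weights, 1 fit over 4 groups, a replicate block and each library left out. Averaging replicates 14 and 15 of the libraries labelled TAA control was added after the data were seen. The cBDL, human and proteome data of the study were not analysed here.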

Additional observations from a re-analysis of the deposited data

Results flagged for a closer look

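In 4 of 60 sets of libraries (10 genes in 6 groups) 1 library lay far from the others by Dixon's criterion on log2 CPM, where chance gives about 3. Acute replicate 4 had Egr3 at 0.161 CPM, with the other 4 acute libraries between 0.758 and 0.872 CPM, and Nr4a3 at 1.13 CPM, with the others between 3.32 and 4.20 CPM. Cirrhosis replicate 2 had Nr4a2 at 73.8 CPM, with the other 5 between 42.1 and 48.4 CPM. The library labelled control replicate 3 had Nr4a3 at 99.6 CPM, with the others between 39.5 and 50.2 CPM.

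The effect against healthy LSECs differed between stages, tested as the direct difference between the stages in limma-voom with Benjamini-Hochberg adjustment. These are the fits between stages given above, which held no healthy libraries. Between fibrosis and acute it differed by 1.08 for Nr4a1 and 1.06 for Zfp36 on the log2 scale, calls that were each lost under some settings. Between cirrhosis and fibrosis it differed by 5.66 for Egr1, 4.41 for Egr2, 5.53 for Egr3, 4.58 for Nr4a1, 1.85 for Nr4a2, 4.27 for Nr4a3, 3.46 for Ier2 and 4.43 for Zfp36. Between cirrhosis and acute it differed by 5.61 for Egr1, 3.502 for Egr2, 5.85 for Egr3, 5.58 for Nr4a1, 1.99 for Nr4a2, 5.33 for Nr4a3, 3.71 for Ier2 and 5.41 for Zfp36. Their causes were not tested.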

How the results depend on the processing

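The counts of 9 genes called lower in acute and in fibrosis against healthy were 9 under every alternative run, and those of the other comparisons except fibrosis against acute stayed within 1.5 times their value (5 to 7 in cirrhosis against healthy, 8 to 9 in cirrhosis against fibrosis, 8 to 10 in cirrhosis against acute, 6 to 8 in the TAA experiment). Fibrosis against acute gave 2, but 4 with library quality weights, 1 with 1 fit over 4 groups, where Nr4a1 was lost, and 1 to 3 with a library left out. Signs turned for differences that were not called. Egr3 in cirrhosis against healthy was 0.085 without TMM factors, and Egr2 was -0.067 with library quality weights and -0.011 to 0.217 with a library left out. Egr1 in fibrosis against acute was -0.043 without TMM factors, -0.054 with quality weights, -0.062 with 1 fit over 4 groups and -0.10 to 0.15 with a library left out, and Egr3 was -0.11 to 0.57 with a library left out (lowest without acute replicate 4). The cause was not tested. Without TMM factors, which were 0.712 to 0.939 in healthy libraries and 0.989 to 1.18 in acute ones, the median log2 fold change of all genes against healthy rose by 0.41 in acute, 0.40 in fibrosis and 0.35 in cirrhosis and that of cirrhosis against fibrosis fell by 0.11, and the share of calls that were higher went from 50.3% to 60.9% in fibrosis and from 52.2% to 71.3% in cirrhosis. With the replicate block 9 genes were called in acute and 6 in cirrhosis against healthy and 10 in cirrhosis against acute, the numbers being shared by different rats. With the block Nr4a1 (-0.88) was called in cirrhosis against healthy and Ier3 (0.87) and Ier5 (0.59) in cirrhosis against acute, and other alternatives called Nr4a1 and Ier3 there too. Depth limited Egr3 most, with 7 to 32 counts in acute libraries.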

Other observations

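Heat shock genes, a list of 10 symbols and 11 gene rows, were also compared with healthy LSECs. In acute 3 were called higher and 4 lower, and in fibrosis 4 and 3. These counts were near the shares of all genes (35.5% and 37.9% in acute, 35.3% and 34.9% in fibrosis). In cirrhosis 4 were called higher and 0 lower, where 27.1% and 24.7% of all genes were. The medians at the 3 stages were -0.17, 0.01 and 0.94. The inducible chaperone gene Hspa1a was at 5519 CPM in healthy, 249 in acute, 370 in fibrosis and 6634 in cirrhosis, lower by 5.46 in acute and 3.94 in fibrosis on the log2 scale and not called in cirrhosis. Its near-identical copy Hspa1b shares reads with it, so that both levels are uncertain. The mitochondrial chaperonin gene Hspd1 moved the other way and was called higher at all 3 stages (2.60, 2.62 and 1.71). In cirrhosis Hsp90aa1 (2.63) and Hsph1 (2.39) were the largest changes. In the TAA experiment Dnajb1 (1.23), Hspa1a (1.16) and Hspb1 (1.02) were called higher in the libraries labelled TAA control and 0 were called lower. Of all genes 12.7% were called higher and 14.9% lower there.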
